A study of Mus musculus with 4 samples.

Results

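The mouse mitochondrial genome carries 37 genes, and all 37 were found among the 50600 genes counted in T-helper 2 cells, by taking every gene whose chromosome is M and splitting the set by strand. The plus strand of the reference holds 28 of them, namely 12 coding genes, 2 ribosomal RNA (rRNA) genes and 14 transfer RNA (tRNA) genes. The minus strand holds 9, namely mt-Nd6 and 8 tRNA genes. The study had 4 libraries of 1 group and no second condition: T-helper 2 primary cells of strain C57BL/6NJ, replicates 1 to 4, labelled total RNA-seq, with a linked library protocol named for poly(A)+ RNA. The labels give each library its own biosample record but 1 donor record for all, so p-values reflect only how these libraries vary, which may be technical variation. Sex and age are not given. Path names in the headers of all 4 tables carry a time of 24 hours, and the labels link a protocol for differentiating CD4+ T cells.

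Mitochondrial DNA is copied into RNA along nearly its whole length on both strands, and the long transcripts are cut into messenger, ribosomal and transfer RNAs, often at the tRNAs that lie between the other genes. The genes on the plus strand of the reference are usually called heavy-strand genes, and those on the minus strand light-strand genes. In most tissues the steady-state RNAs of the plus-strand genes, the rRNAs above all, are known to be abundant, while most of the transcript made from the other promoter is noncoding and short-lived. mt-Nd6 is the only protein gene read from that transcript. Its product, like those of the other mt-Nd genes, is a subunit of respiratory complex I.

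The sequences below, from the GENCODE M21 transcripts of GRCm38, show where genes of opposite strands meet, written 5′ to 3′ along each gene's own strand. Capitals mark bases that an opposite-strand gene also covers. Only 6 of the 37 genes share any base with the other strand. The last 60 bases of mt-Nd5 (plus strand, chromosome M, 11742 to 13565) and of mt-Nd6 (minus strand, 13552 to 14070) show the longest such overlap, 14 bases, which are reverse complements of each other.
mt-Nd5: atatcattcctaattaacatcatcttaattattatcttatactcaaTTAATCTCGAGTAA
mt-Nd6: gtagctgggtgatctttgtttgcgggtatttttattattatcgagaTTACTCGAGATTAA

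The next 6 are tRNA genes on which the strand comparison turns, whole and without intron. mt-Tq (glutamine) and mt-Ti (isoleucine) share 3 bases, and mt-Ts1 (serine) shares 3 with mt-Co1. mt-Te (glutamate) lies directly upstream of mt-Nd6 on the same strand, and mt-Tp (proline) and mt-Tt (threonine) touch without sharing a base. mt-Tq, mt-Ts1, mt-Te and mt-Tp lie on the minus strand.
mt-Tq: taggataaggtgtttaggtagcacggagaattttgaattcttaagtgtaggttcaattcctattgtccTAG
mt-Ti: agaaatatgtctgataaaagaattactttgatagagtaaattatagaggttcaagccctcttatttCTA
mt-Ts1: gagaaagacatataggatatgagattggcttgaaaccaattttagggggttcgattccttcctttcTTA
mt-Te: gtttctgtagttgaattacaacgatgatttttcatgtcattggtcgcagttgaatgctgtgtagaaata
mt-Tp: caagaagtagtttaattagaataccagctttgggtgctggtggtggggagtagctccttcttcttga
mt-Tt: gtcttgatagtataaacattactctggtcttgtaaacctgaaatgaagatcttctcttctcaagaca

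The gene sequences also differ in base use by strand. Of the G and C bases of mt-Nd6, 82.5% were G, against a median of 29.2% over the 12 coding genes of the plus strand, which ranged from 18.5% to 40.4%. The median was 62.0% for the 8 minus-strand tRNA genes and 45.9% for the 14 plus-strand ones, and the former ranged from 52.2% to 69.2%.

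Each library held between 1804217 and 2711948 counted fragments in 12398 to 14083 genes. The authors counted paired fragments on 1 strand, and the strand that the library kit keeps is not given in the sources used here. A count printed for a gene may therefore come from RNA of that gene's strand or from RNA of the opposite strand, and which of these holds was not tested. All shares, ratios and levels below, those of mt-Nd6 and of the minus strand included, are of the strand labelled in the tables and are not taken as expression. If the kit keeps the other strand, each count would be of RNA opposite to the named gene, within that gene's bases only. Swapping the strand labels would then not give the counts of the genes on the other strand. Genes whose exons overlap an opposite-strand gene were above 1 TPM (the unit is described further on) in 61.4% of cases, against 24.9% of genes with no such overlap. Of the T cell markers, all 5 had counts in every library, with sums of 118, 163, 142 and 38 in replicates 1 to 4. Of 6 Th2 markers, Gata3, Il4 and Ccr4 had counts in every library and Il1rl1 in none. Il5 had 0, 0, 0 and 1 counts and Il13 had 0, 1, 0 and 0 in replicates 1 to 4. The sums of the 6 were 76, 131, 107 and 56. Of markers of other cells, NK cell genes, Cd8a, Ms4a1, Lyz2 and Adgre1 were at 0 in every library, Cd8b1 and Cd79a had at most 15 counts, and Csf1r had 983 to 1026. Their part in the mitochondrial counts was not tested.

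Minus-strand genes took most of the mitochondrial counts. The 37 genes had 43385, 43566, 59449 and 44410 counts in replicates 1 to 4, which is 2.25% ± 0.164 (SD, n = 4) of the library. Of these, 90.0%, 87.0%, 87.7% and 86.5% lay on the 9 minus-strand genes (mean 87.8% ± 1.54, SD, n = 4), which hold 6.92% of the mitochondrial exon length. The Wilson 95% interval of the share ran from 89.7% to 90.3% in replicate 1 and from 86.2% to 86.8% in replicate 4, counting error only. For replicates 2 and 3 it ran from 86.72% to 87.35% and from 87.41% to 87.94%. All 4 libraries thus lay close together. Replicate 1 was above the others, and replicate 3 above replicates 2 and 4, by more than counting error.

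Nuclear genes were split more evenly between the strands. Together they had 51.2% ± 7.42 (SD, n = 4) of their counts on the minus strand, and 44.9% ± 0.437 without CT010467.1, a ribosomal RNA gene on chromosome 17 that took very unequal shares of the 4 libraries. Among the autosomes and the X chromosome the mean share ran from 29.6% ± 2.12 on X to 61.2% ± 0.637 on chromosome 2, apart from 79.4% ± 15.4 on chromosome 17. Without mt-Nd6, the minus-strand share of the remaining mitochondrial counts was 28.6%, carried by 8 tRNA genes.

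**Figure D1:**
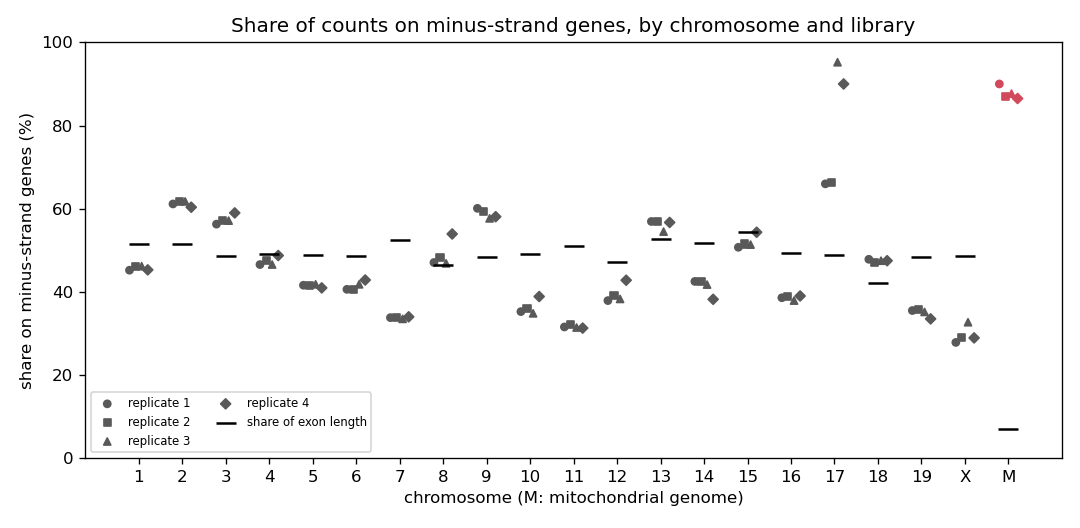
Share of counts on minus-strand genes (y axis, percent) for each chromosome (x axis) in 4 libraries (points), with the share of exon length on the minus strand as a bar. The mitochondrial genome (red) lies between 86.5% and 90.0% against 6.92% of exon length, and chromosome 17 is the only other one whose mean is above 61.2%.

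mt-Nd6, the complex I subunit gene of the minus strand, had 36963, 35801, 49430 and 36113 counts in replicates 1 to 4. It took 1.66% to 2.05% of each library and 81.3% to 85.2% of its mitochondrial counts, and ranked 3 among all genes by mean count. The 12 plus-strand coding genes had 4207, 5509, 7040 and 5894 counts in all. Per kb of exon, mt-Nd6 had 76256 ± 12692 counts and those 12 genes together 520 ± 107 (SD, n = 4). mt-Nd6 was 128 to 184 times higher, a log2 ratio of 7.21 ± 0.23 (SD, n = 4), and the groups were far apart in every library. The ratio to the 4 plus-strand coding genes with no near-identical nuclear copy found (mt-Nd1, mt-Nd2, mt-Nd5 and mt-Cytb) was 6.56 ± 0.21, and to mt-Nd5 alone, the highest of the 12 per kb of whole exon, 5.59 ± 0.31, both on the log2 scale.

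Of the 12 plus-strand coding genes, only 6 had more than 1 count in any library. mt-Nd5, a complex I subunit gene that meets mt-Nd6 end to end, had 2059, 2582, 3673 and 3400 counts. mt-Nd4, also of complex I, had 718, 946, 1422 and 1696. mt-Cytb, the complex III subunit cytochrome b, had 463, 581, 641 and 327. These 3 are the nearest of the 6 to mt-Nd6. mt-Co1, the catalytic subunit of complex IV, had 440, 576, 558 and 149 counts. mt-Nd2 had 281, 431, 410 and 232, and mt-Nd1 had 246, 393, 336 and 89. Replicate 4 was the lowest for mt-Cytb, mt-Co1, mt-Nd2 and mt-Nd1 and the highest for mt-Nd4.

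The rRNA genes, whose products make up the RNA core of the mitochondrial ribosome, lay below the coding genes. mt-Rnr1 had 37, 55, 95 and 13 counts and mt-Rnr2 had 55, 55, 147 and 24. Per kb the 12 coding genes together exceeded the 2 rRNA genes by 3.73 ± 1.04 on the log2 scale (SD, n = 4), higher in 4 of 4 libraries, although 5 of the 12 were at 0. mt-Rnr1 and mt-Rnr2 differed by 0.21 ± 0.37 per kb on that scale, within their spread.

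**Figure D2:**
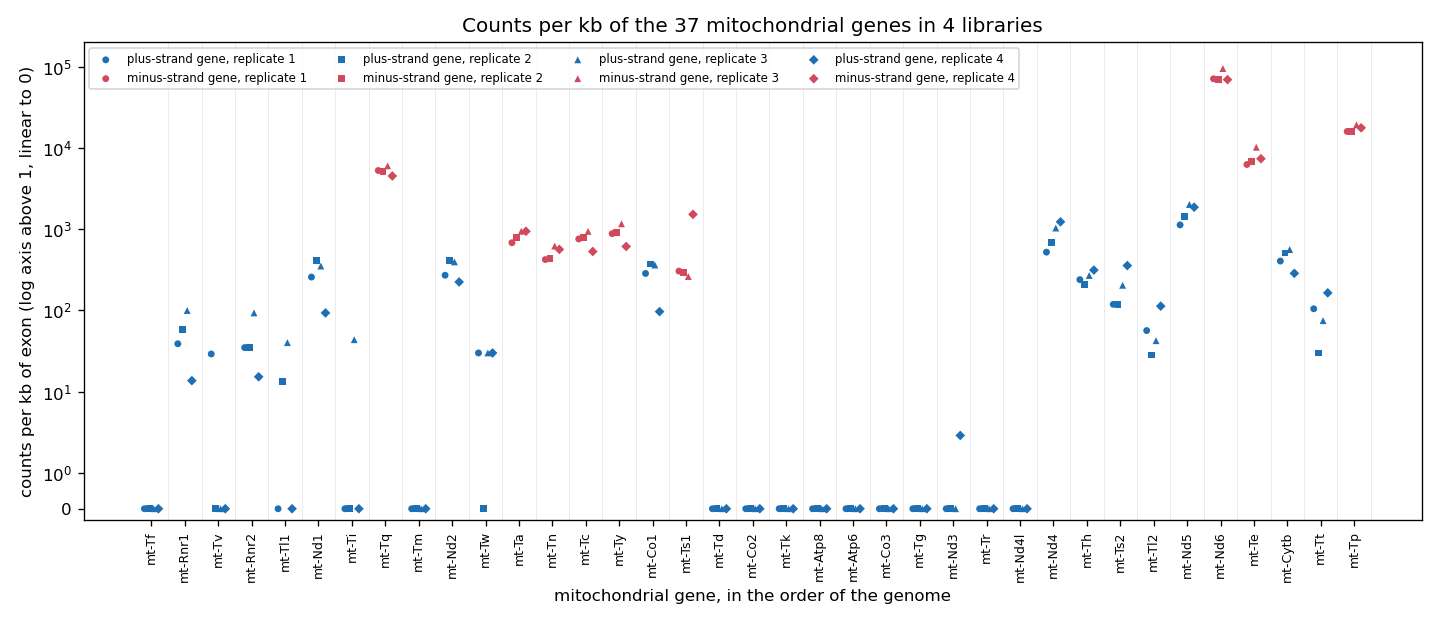
Counts per kb of exon (y axis, log above 1 and linear down to 0) of the 37 mitochondrial genes in genome order (x axis), 4 libraries each, blue for the plus strand and red for the minus strand. mt-Nd6 is highest at a mean of 76256, mt-Tp follows, and the genes from mt-Td to mt-Nd4l lie at 0 apart from 1 count of mt-Nd3.

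Ordered by distance from mt-Nd6 along the linear reference, the plus-strand genes that lie far before it had fewer counts per kb than mt-Nd5 and mt-Nd4. The genome is a circle, and distances across the ends of the reference were not measured. mt-Rnr1 starts at position 70, so the rRNA genes may lie closer to mt-Nd6 by that way round. The order is therefore one of reference position only. The order divides the whole count of each gene by only its bases outside the stretch copied on chromosome 1, described further on. Counted fragments that reach into that stretch were not separated, so mt-Nd4 and mt-Co1 may be set too high. mt-Nd5, which overlaps the end of mt-Nd6, had 1606 ± 407 counts per kb and mt-Nd4, 2007 bases away, 2381 ± 885 (SD, n = 4). mt-Nd4 was above mt-Nd5 by 0.53 ± 0.23 on the log2 scale, in 4 of 4 libraries. This order rests on dividing all counts of mt-Nd4 by 502 of its 1378 bases. Over whole exons it reversed, with mt-Nd5 above mt-Nd4 by 0.93 ± 0.23 in 4 of 4. mt-Co1, 6679 bases away, had 406 ± 186 counts per kb. mt-Nd2 at 8600 bases had 326 ± 93.6, and mt-Nd1 at 9844 bases had 278 ± 139. On the log2 scale mt-Co1 was above mt-Nd1 by 0.57 ± 0.12 in 4 of 4 libraries. mt-Nd2 differed from mt-Co1 by less than the spread (0.18 ± 0.58, mt-Co1 higher in 3 of 4) and was above mt-Nd1 by 0.38 ± 0.59, in 4 of 4. Over whole exons mt-Co1 and mt-Nd1 differed by 0.03 ± 0.12. The rRNA genes, 10876 and 12527 bases away, had 44.4 ± 33.6 (mt-Rnr2) and 52.4 ± 36.2 (mt-Rnr1), and mt-Nd1 was above mt-Rnr1 by 2.54 ± 0.48 on the log2 scale in 4 of 4 libraries. On the other side of mt-Nd6, mt-Cytb starts 74 bases after it and had 440 ± 121 counts per kb, below mt-Nd5 by a log2 ratio of 1.88 ± 0.58 in 4 of 4 libraries. These levels are a description of the order, and what sets them was not tested.

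**Figure D3:**
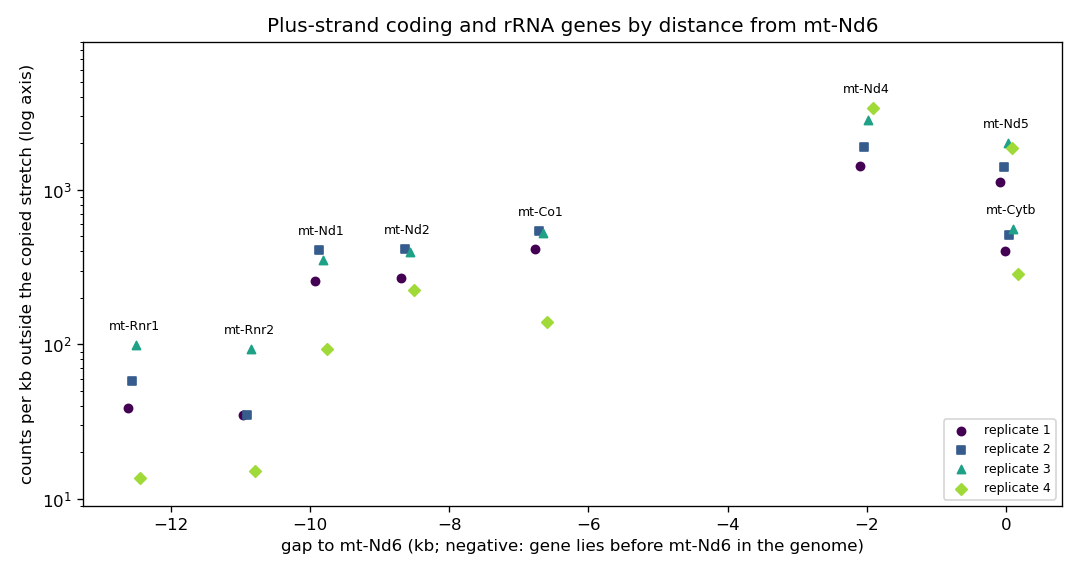
Whole-gene counts per kb of bases outside the copied stretch (y axis, log scale) against the gap to mt-Nd6 in kb (x axis, negative before it). Gaps follow the linear reference and not the shorter way round the circular genome. Shown are the plus-strand coding and rRNA genes with bases outside that stretch, 4 libraries each, spread slightly sideways. mt-Nd4 and mt-Nd5 have means of 2381 and 1606, the genes from mt-Nd1 to mt-Co1 278 to 406, and the rRNA genes 44.4 and 52.4.

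The tRNA genes showed the same split by strand. The 8 minus-strand tRNA genes had 2085, 2120, 2691 and 2303 counts in all, and the 14 plus-strand ones 38, 26, 46 and 63. Per kb these were 4189 ± 506 and 45.4 ± 16.3 (SD, n = 4). The minus-strand set was 63.4 to 141 times higher, a log2 ratio of 6.59 ± 0.48, and the 2 sets were far apart in every library. Among tRNA genes outside the copied stretch the log2 ratio was 6.28 ± 0.50. The library fragment length is not given in the sources used here, and tRNA genes are short (59 to 75 bases), so a level per kb depends on how fragments that reach past a tRNA were assigned.

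Of the minus-strand tRNA genes, mt-Tp, mt-Te and mt-Tq carried most of the counts. mt-Tp had 1071, 1068, 1292 and 1187 counts, mt-Te had 432, 467, 704 and 509, and mt-Tq had 375, 366, 428 and 321. Each was higher than the next in 4 of 4 libraries: mt-Tp over mt-Te by 1.19 ± 0.19 and mt-Te over mt-Tq by 0.53 ± 0.25 in log2 counts per kb. mt-Nd6 in turn was above mt-Tp by 2.14 ± 0.14 on that scale.

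mt-Ta (alanine), mt-Tn (asparagine), mt-Tc (cysteine) and mt-Ty (tyrosine) form 1 cluster on the minus strand, each 2 bases from its nearest neighbour. mt-Ta had 47, 55, 65 and 65 counts, mt-Tn 30, 31, 44 and 40, mt-Tc 50, 52, 62 and 35, and mt-Ty 59, 61, 78 and 41. mt-Tq was above this cluster by 2.82 ± 0.10 in log2 counts per kb. Within the cluster mt-Ty was above mt-Tc by 0.24 ± 0.05 and mt-Ta above mt-Tn by 0.73 ± 0.11 on that scale, each in 4 of 4 libraries. mt-Ta differed from mt-Ty (0.06 ± 0.46) and from mt-Tc (0.17 ± 0.44) by less than the spread. mt-Ts1 had 21, 20, 18 and 105 counts and was the only minus-strand gene with 1 library far from the others.

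The position of these genes bears on what could be counted. Fragments that touched 2 genes of the same strand were left out by the authors' settings. mt-Tq, mt-Ts1 and mt-Tp have no gene of their own strand within 1175, 1543 and 1216 bases, whereas the 4 clustered tRNA genes lie next to one another, and mt-Te abuts mt-Nd6 with no gap. All 14 plus-strand tRNA genes lie within 1 base of a gene of their strand. The part of this setting in the levels was not tested.

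Among the 14 plus-strand tRNA genes, counts lay in 8, mostly those next to mt-Nd4 and mt-Nd5. mt-Th (histidine) had 16, 14, 18 and 21 counts. mt-Ts2 (serine) had 7, 7, 12 and 21, and mt-Tl2 (leucine) 4, 2, 3 and 8. These 3 form a run between mt-Nd4 and mt-Nd5. mt-Tt had 7, 2, 5 and 11, mt-Tw (tryptophan) 2, 0, 2 and 2, and mt-Tl1 (leucine) 0, 1, 3 and 0. mt-Ti and mt-Tv (valine) had 3 and 2 counts in 1 library each, and mt-Tf, mt-Tm, mt-Td, mt-Tk, mt-Tg and mt-Tr had none. A count of 0 allows up to 3 counts, or 1.11 to 1.66 CPM (counts per 1000000 of the library total), counting error only.

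Each minus-strand gene was then compared with the nearest plus-strand gene on either side, within each library, as the difference in log2 of the count plus 1, divided by exon length in kb. Pairs were not formed across the ends of the linear reference, so mt-Tp, the last gene, was paired with mt-Tt only. There were 17 such pairs, and in 16 of them the minus-strand gene was higher in 4 of 4 libraries. With the counts of mt-Co1 divided by only its 1062 bases outside the copied stretch, this held for 15. mt-Tn over mt-Co1 became 0.07, -0.27, 0.27 and 2.03 in replicates 1 to 4. The exact two-sided sign-flip permutation test gave p = 0.125 for each of the 16 (adjusted p = 0.133 over 17 pairs). That is the smallest p that 4 libraries allow, so no pair could pass 0.05. Only 1 tRNA gene, mt-Ts1, shares bases with a coding gene on the other strand; the other pairs are neighbours.

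Against coding genes, mt-Nd6 was above mt-Nd5 by 5.59 ± 0.31 and above mt-Cytb by 7.47 ± 0.35 (SD, n = 4). mt-Te was above mt-Nd5 by 2.27 ± 0.21 and above mt-Cytb by 4.14 ± 0.41, in log2 per kb. The 4 clustered tRNA genes exceeded mt-Co1 by 1.07 ± 1.03 (mt-Tn) to 1.84 ± 0.59 (mt-Ty). These orders against mt-Co1 and of mt-Te hold only per kb. In plain counts, which favour long genes, mt-Co1 was above each of the 4 and above mt-Ts1, mt-Nd5 was above mt-Te, and mt-Te was above mt-Cytb in 2 of 4 libraries. mt-Ts1 against mt-Co1 was 0.16, -0.30, -0.39 and 3.98 in replicates 1 to 4, higher in 2 of 4 libraries (mean 0.86 ± 2.09, exact sign-flip permutation p = 0.875, adjusted 0.875, n = 4). Without replicate 4 the mean was -0.18, so the direction rests on that library.

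Against tRNA genes the distances were larger. mt-Tp was above mt-Tt by 7.48 ± 0.81, and mt-Tq above mt-Ti by 8.00 ± 0.87, on the same log2 scale. mt-Tm and mt-Td had no count. Set against 3 counts over the 4 libraries, mt-Tq was at least 483-fold higher than mt-Tm. mt-Td lies within the stretch spanned by copies on chromosome 1, so no such lowest fold is given for mt-Ts1 against it. Their pair is among the 16 above, but its log2 values follow the counts of mt-Ts1 alone. mt-Ta, mt-Tn, mt-Tc and mt-Ty exceeded mt-Tw by 3.93 ± 0.70 to 4.70 ± 0.92.

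A stretch of the genome without counts coincided with a nuclear copy. On chromosome 1 (mm10, minus strand, 24611535 to 24616188), 7 annotated genes match mitochondrial genes in the same order, with 4140 aligned bases, 2 mismatches and 0 gaps: Gm29216, Gm28661, Gm10925, Gm28437, Gm28438, Gm10222 and Gm28439. They span positions 6390 to 11042 of the mitochondrial genome, a stretch of 4653 bases from the end of mt-Co1 into mt-Nd4. The rest of the stretch has no annotated copy, and its chromosome 1 sequence was not analysed here. In that rest lie mt-Ts1, mt-Td, mt-Tk, mt-Tg, mt-Tr and mt-Atp8, the last apart from the 43 bases it shares with mt-Atp6. Of the 11 mitochondrial genes wholly inside the stretch of 4653 bases, 9 had 0 counts in every library, against 2 of the 24 wholly outside (mt-Tf and mt-Tm). Those 9 include mt-Co2 and mt-Co3 of complex IV, mt-Atp6 and mt-Atp8 of ATP synthase, and mt-Nd4l of complex I. The other two were mt-Ts1 with 164 counts in all and mt-Nd3 of complex I with 0, 0, 0 and 1. The authors' counting left out fragments that align to more than 1 place, so a deposited 0 for a gene with a copy does not show that its RNA was absent. For mt-Atp8 and the tRNA genes between the copies this was not tested.

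The copies differ from the mitochondrial genes at 2 aligned bases. Below, the differing base is in capitals, counted from 1 at the first base of the mitochondrial gene: A1066T in Gm29216 against mt-Co1, shown from 1063 to 1086, and T3C in Gm28438 against mt-Nd3, shown from 1 to 23.
mt-Co1: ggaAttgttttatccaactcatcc
Gm29216: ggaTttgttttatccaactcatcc
mt-Nd3: atTaacctgtacactgttatctt
Gm28438: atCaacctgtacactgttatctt

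Gm28438, the copy of mt-Nd3, had 49, 60, 71 and 158 counts, the highest in replicate 4. Gm10222, the copy of mt-Nd4l, had 1, 0, 1 and 0, and the other 5 copies had none. Gm29216, the other copy with a differing base, was among those 5. The reference is C57BL/6J and the cells are C57BL/6NJ. Which base these cells carry at position 3 of mt-Nd3, position 9461 of the mitochondrial genome, was not analysed here, so the counts of Gm28438 and mt-Nd3 cannot be told apart.

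**Figure D4:**
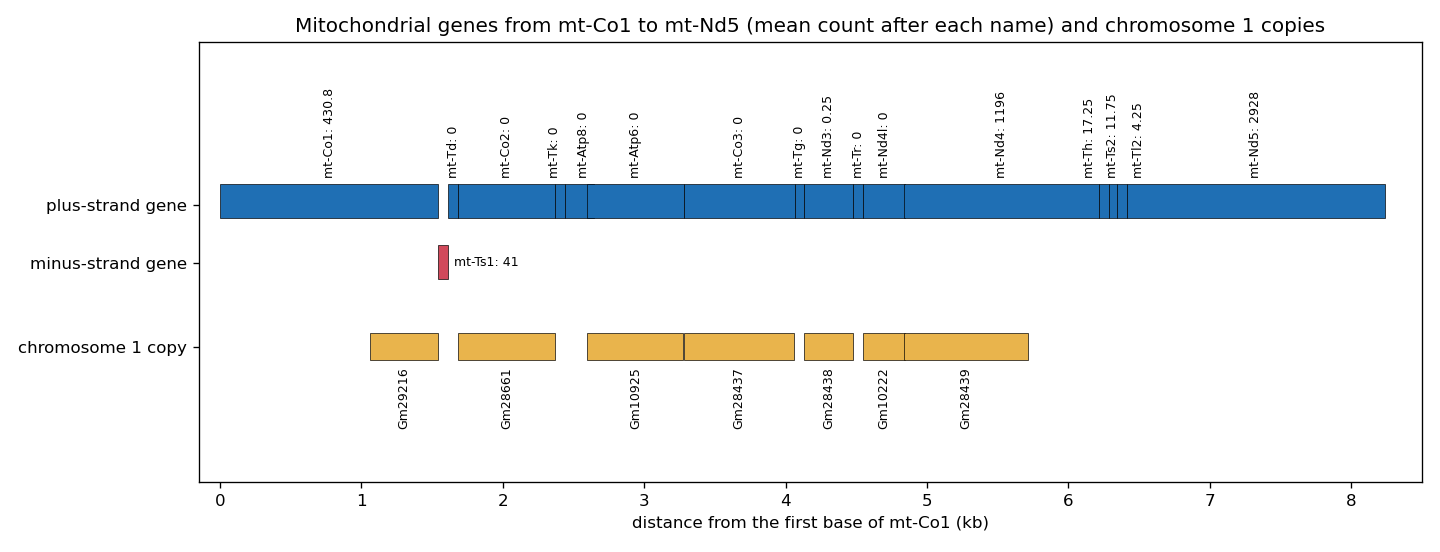
Map of the mitochondrial genes from mt-Co1 to mt-Nd5 by distance from the first base of mt-Co1 (x axis, kb), plus strand in blue and minus strand in red, each with its mean count over 4 libraries, above the 7 chromosome 1 copies in yellow. Of the 11 genes wholly inside the copied stretch, 9 have a mean of 0, while mt-Co1 and mt-Nd4 reach beyond it.

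Against all genes of the tables, most mitochondrial genes with a count lay above 1 TPM on the strand labelled. Levels were tested against 1 TPM, where TPM (transcripts per 1000000) is counts per kb scaled to the same total in every library, with edgeR's quasi-likelihood test and Benjamini-Hochberg adjustment at 0.05 over 17203 genes with a count. Of all genes tested, 37.6% were above 1 TPM and 21.7% below. Of the 26 mitochondrial genes with a count, 23 were above and 0 below: 9 of 9 on the minus strand and 14 of 17 on the plus strand. mt-Tv, mt-Ti and mt-Nd3 were not called. The median level was 9.31 on the log2 TPM scale for the minus-strand genes, 6.05 for the plus-strand genes with a count and 0.18 for all genes. From the top, the fitted log2 TPM was 15.73 for mt-Nd6, 13.58 for mt-Tp, 12.40 for mt-Te, 11.88 for mt-Tq and 10.14 for mt-Nd5. Because tRNA genes are short, these calls depend on length: with 1 length for every gene, mt-Tv, mt-Tl1, mt-Ti, mt-Tw and mt-Tl2 had fitted levels below 1 TPM.

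The spread between replicates was wide at most plus-strand genes measured and narrow at most minus-strand ones, a difference that was not tested. The edgeR test of spread above the trend across genes covered 4190 genes with enough counts in every library, among them 18 of the 37 mitochondrial genes, 9 of each strand. It called 0.0% of all genes and 0 of the 18 mitochondrial genes, the smallest adjusted p among them being 0.534. At an unadjusted p under 0.05 it marked 6.4% of all genes and 8 mitochondrial genes, 7 on the plus strand and mt-Ts1 on the minus strand. The ratio of a gene's spread to the trend had a median of 9.71 over the 9 plus-strand genes (0.434 to 30.1), 0.822 over the 9 minus-strand genes (0.307 to 12.4) and 0.914 over all genes. Without a filter on low counts 6 of the 26 mitochondrial genes with a count passed (mt-Rnr2, mt-Nd1, mt-Co1, mt-Ts1, mt-Nd4 and mt-Nd5), against 2.01% of 17203 genes. Without replicate 4, 3 passed (mt-Rnr2, mt-Nd4 and mt-Nd5), against 0.399% of 5007 genes.

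The direction of these differences varied along the genome. In log2 CPM, replicate 4 was lower than the mean of the other replicates by more than 1 at 4 of the 18 genes, against 11.0% of all 4190 genes: mt-Rnr1 (-2.17), mt-Rnr2 (-1.71), mt-Nd1 (-1.90) and mt-Co1 (-1.86). Over the 6081 genes whose mean count reached 10, it was these 4 of 19 against 27.5%, so there their share was not above that of all genes. It was higher by more than 1 only at mt-Ts1 (2.33), against 2.72% of all genes, and over the 6081 at mt-Ts1 and mt-Ts2, against 3.27%. At mt-Nd4 and mt-Nd5 it was 0.72 and 0.28 higher. Replicate 3 was higher by more than 1 at mt-Rnr1 (1.16) and mt-Rnr2 (1.32), against 0.239% of all genes (2.02% of the 6081). It was lower by more than 1 at mt-Ts1, against 2.96% (5.15% of the 6081). Replicate 2 was higher by more than 1 at mt-Nd1 (1.26) and mt-Co1 (1.05), against 4.99% of all genes (18.4% of the 6081), and lower at none, against 0.263%. For replicates 2 and 3 the mean of the others includes replicate 4, so their differences at these genes partly follow that library. In replicates 1 to 4, mt-Rnr1 had 20.5, 29.8, 35.0 and 5.99 CPM, and mt-Nd1 had 136, 213, 124 and 41.0. Differences without replicate 4 were not computed. Replicate 1 passed neither bound at any of the 18, against 0.406% lower and 1.72% higher. All minus-strand genes other than mt-Ts1 stayed within 1 of the mean of the others in every replicate. Replicate 4 also had the fewest genes with a count (12398) and the lowest sum of T cell markers (38). The part of either in these differences was not tested.

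**Figure D5:**
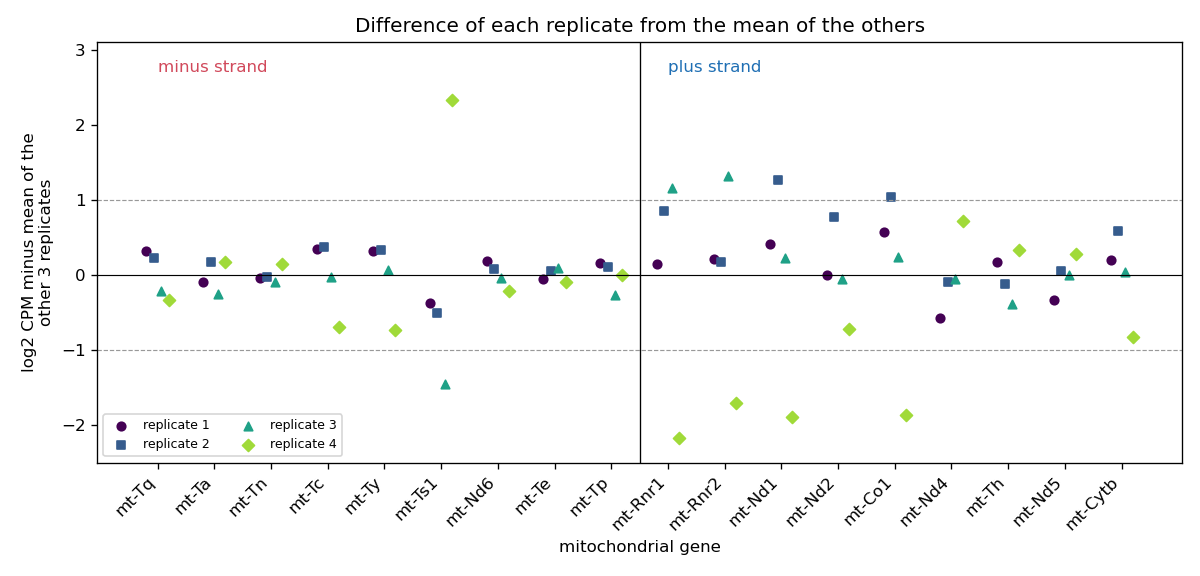
Difference in log2 CPM between each replicate and the mean of the other 3 (y axis), for the 9 minus-strand and 9 plus-strand genes with enough counts (x axis); dashed lines mark differences of 1. Replicate 4 lies at -1.71 to -2.17 for mt-Rnr1, mt-Rnr2, mt-Nd1 and mt-Co1 and at 2.33 for mt-Ts1, while the other minus-strand genes stay inside the dashed lines.

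Nuclear genes that transcribe, cut, stabilise or copy the mitochondrial genome spanned a wide range of levels. Of 37 listed, 35 were found, of which 15 were above 1 TPM in the same edgeR test, 5 below, 14 not called and 1 (Mterf1b) at 0 in every library. Of the 34 tested, 44.1% were above and 14.7% below, near the 37.6% and 21.7% of all genes. Their median level was 0.56 on the log2 TPM scale, against 0.18 for all genes. Of the 14 whose exons overlap an opposite-strand gene, 12 were above 1 TPM, against 3 of the 21 that share none. Over all genes tested, 61.4% of those with such an overlap and 24.9% of those without were above 1 TPM, and whether the listed genes differ from these was not tested. Slirp, which stabilises mitochondrial messenger RNA, was highest at 868 ± 125 TPM (SD, n = 4) and shares 1067 exon bases with Snw1. Gabpa, a transcription factor of nuclear genes for respiration, had 126 ± 34.9 TPM and shares 397 with Atp5j. Fastk, of the FASTK family of mitochondrial RNA-binding proteins, had 118 ± 16.7 TPM and shares 1141 with Slc4a2.

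Trnt1, which adds CCA ends to tRNAs, had 80.7 ± 7.01 TPM and shares 144 exon bases with Crbn. Polg, the mitochondrial DNA polymerase, had 65.2 ± 6.57 TPM and shares 921 with Fanci. Mterf2, of the mitochondrial termination factor family, had 15.6 ± 3.74 TPM and shares 398 with Tmem263. The 3 genes above 1 TPM that share no base with the other strand were Trmt10c, of mitochondrial RNase P, Pnpt1, an RNA-degrading exoribonuclease, and Twnk, the mitochondrial DNA helicase; they were named for that reason after their values were seen. Polrmt, the mitochondrial RNA polymerase, had 6, 7, 8 and 0 counts, and was likewise chosen afterwards.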

How the data were processed

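RNA of 4 libraries of 1 group was measured as counts of paired fragments per gene. Per the file headers, the authors counted with featureCounts 1.4.6-p4 over GENCODE M13 exons on mm10, with strand setting 1, both ends aligned, and without options for fragments that align to several places or touch several genes. The deposited values are these raw counts. The aligner's version is not given in the sources used here.

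Symbols and sequences came from GENCODE M21 (GRCm38), whose coordinates were the same for all 37 genes. Counts per kb used merged exon length, and CPM the library total. Levels were tested against 1 TPM with edgeR 4.0.16 in R 4.3.3, its quasi-likelihood F computed from the deviance at exactly 1 TPM, since a model with 1 coefficient has no other null. The spread test compared each gene's quasi-dispersion with the trend after edgeR's default filter. Both were checked on simulated data. Pairs used a sign-flip permutation test. Alternatives used limma 3.58.1 and DESeq2 1.42.0. BLAST 2.17.0 found nuclear transcripts of at least 99% identity over 60 bases; copies in unannotated sequence were not analysed here.

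The text names all coding, rRNA and minus-strand tRNA genes, the 6 plus-strand tRNA genes highest in mean count, the 6 listed nuclear genes highest in TPM, and nuclear copies with a count. The members and lists were chosen with earlier results of these data known. With 1 group, no condition could be compared.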

Additional observations from a re-analysis of the deposited data

Results flagged for a closer look

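Of 42 sets of 4 libraries examined, 7 had 1 library far from the other three, measured by its gap to the nearest divided by the whole range. Chance gives this in about 1 of 20 sets. In replicate 4, mt-Ts1 had 48.4 CPM, against 6.64 to 11.6 in the others. mt-Ts2 had 9.68 CPM there, against 3.79 to 4.42. Gm28438, the chromosome 1 copy of mt-Nd3, had 72.8 CPM there, against 26.2 to 32.5. mt-Ts1 lies inside the copied stretch and mt-Ts2 outside it.

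Among the neighbour pairs, replicate 4 stood apart for mt-Ta over mt-Co1 (3.30 in log2 per kb, against 1.12 to 1.4), mt-Ts1 over mt-Co1 (3.98, against -0.39 to 0.16) and mt-Ts1 over mt-Td (6.75, against 4.27 to 4.48). These 3 share mt-Ts1 or mt-Co1. mt-Td had 0 counts in every library, so its pair repeats the difference of mt-Ts1. Replicate 3 stood apart for mt-Tq over mt-Ti (6.70, against 8.29 to 8.51), where mt-Ti had 3 counts in that library and 0 in the others.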

How the results depend on the processing

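No paired analysis was possible because the series has 1 group, so no 2 groups share replicate numbers; the neighbour pairs compare genes within a library. Leaving out 1 replicate at a time gave 22 to 24 genes above 1 TPM, 0 to 0 below, 0 to 3 called variable, a log2 ratio of 7.10 to 7.27 for mt-Nd6 over the plus-strand coding genes and of 6.41 to 6.79 for minus- over plus-strand tRNA genes, 16 to 16 pairs and a minus-strand share of 87.1% to 88.2%. Genes called below 1 TPM numbered 1 with limma at pseudocount 0.1 and 4 with 1 length for every gene. The shares of all genes called above or below under these level settings, or with 1 replicate left out, are not given here. These counts of mitochondrial genes are therefore not set against them. The use of 1 length for every gene turned mt-Tv to -3.09, mt-Tl1 to -2.17, mt-Ti to -2.60, mt-Tw to -1.56 and mt-Tl2 to -0.043 on the log2 TPM scale, by its construction. Without a filter 6 genes were called variable (2.01% of all genes), and without replicate 4, 3 (0.399%). TMM scaling moved the median of all genes' replicate differences by -0.27, -0.23, 0.40 and 0.10. It left 1 gene higher in replicate 2 (mt-Nd1, against 2.2% of all genes), as did totals without CT010467.1, also against 2.2%. A mean count of at least 10 gave 2 genes of 19 higher in replicate 4 (mt-Ts1 and mt-Ts2; 3.27% of all genes) and 4 lower (27.5%).

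Leaving out mt-Nd6 gave a minus-strand share of 28.6%. The mt-Nd6 log2 ratio was 2.82 in plain counts, 6.56 outside the copied stretch and 5.59 against mt-Nd5, and the tRNA ratio was 5.81 by the median gene. In plain counts 10 pairs had the minus-strand gene higher, and mt-Ta, mt-Tn, mt-Tc, mt-Ty and mt-Ts1 over mt-Co1 became -2.71, -3.38, -2.94, -2.69 and -3.62, and mt-Te over mt-Nd5 -2.46, again by construction. mt-Ts1 over mt-Co1 was -0.18 to 1.28 with 1 replicate left out, the lowest without replicate 4. Dividing mt-Co1 by its bases outside the copied stretch left 15 pairs. That length, the scaling without CT010467.1 and the tRNA genes outside the copied stretch were chosen after seeing the data. Depth limits tRNA genes with fewer than 10 counts, and mt-Tl1 and mt-Tw lost their calls under some alternatives.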
